A study of Danio rerio with 6 samples.

Results

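The mitochondrial dehydrogenases of fatty acid beta-oxidation and the proteins that take up their electrons were read as 10 genes, found by name among the 25281 genes listed: *acadvl*, *acadm*, *acads*, *hadhaa*, *hadhab*, *hadhb*, *hadh*, *decr1*, *etfa* and *etfdh*. All 10 had enough reads to be tested. The livers came from *Tg*(*fabp10a:pt-β-catenin*) zebrafish larvae, in which the hepatocyte promoter *fabp10a* drives a stable *Xenopus* β-catenin, a model of liver regeneration through progenitor cells, and both groups carried the transgene. Larvae were treated for 2 days, from 13 to 15 days post-fertilization (dpf), with the vehicle DMSO or with 1 μM GW7647, a PPARα agonist, and larvae of both groups were fasted meanwhile. Each group had 3 libraries of poly(A) RNA, numbered 1 to 3, each from the pooled livers of many larvae, and there was neither an untreated nor a non-transgenic group. The labels do not say whether the pools came from separate clutches, so p-values measure the spread between these pools.

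Beta-oxidation shortens a fatty acyl-CoA in repeated rounds of dehydrogenation, hydration, a further dehydrogenation and thiolysis. The opening dehydrogenation is done by flavoproteins that differ in the chain length they prefer, and these hand their electrons to electron transfer flavoprotein (ETF) and through it to ETF-ubiquinone oxidoreductase and the respiratory chain. For long chains the remaining reactions take place on the trifunctional protein of the inner membrane, and for shorter chains on separate matrix enzymes. In mammalian liver many of these genes are known targets of PPARα and respond to fasting.

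All 10 genes rose with GW7647, from 1.60-fold for *etfa* to 5.85-fold for *hadhaa*, with a median log2 fold change of 1.63 against -0.01 for all 15705 genes tested. The 10 genes together took 0.0864% to 0.0953% of the exon reads of a DMSO library and 0.217% to 0.222% of those of a GW7647 library. The rises were unequal. The β-oxidation reductase *decr1* and the trifunctional genes *hadhaa* and *hadhb* rose most, the acyl-CoA dehydrogenases lay between, and *hadh*, *hadhab*, *etfdh* and *etfa* rose least. A gene was called when it changed at least 1.5-fold with an adjusted p of at most 0.05 in edgeR's quasi-likelihood test (Benjamini-Hochberg adjustment over all genes tested, TMM normalization), and 10 of the 10 were called higher against a background of 3.39% of all genes called higher and 2.62% called lower. The lowest GW7647 library exceeded the highest DMSO library for 10 of 10 genes, compared with 15.7% of all genes tested. The genes were listed with earlier results of these data in view, so these counts describe the list and are no chance test.

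The libraries held 19961881 to 25224356 reads on exons, of which 96.3% to 96.8% mapped to 1 place only, and the member with the fewest reads, *decr1*, had 267 in its lowest library. TMM scaling factors were above 1 with DMSO (1.05 at the lowest) and below 1 with GW7647 (0.903 to 0.940), and library totals without these factors shifted the median log2 fold change of all genes from -0.01 to -0.23 and turned the calls from 533 higher and 412 lower to 321 higher and 1511 lower. With the replicate number as a block there were 669 higher and 699 lower. Hepatocyte markers were present throughout, and their summed level was 27540 to 30040 CPM (exon reads per 1000000, TMM-normalized) with DMSO and 40160 to 43250 CPM with GW7647, with 6 of 9 called higher and a median log2 fold change of 0.66. The most abundant of them were *bhmt* (means of 9451 and 14001 CPM, not called) and *apoa2* (8064 and 13825 CPM, called), which weigh most in the sum. *fabp10a*, on the same list and the gene whose promoter drives the transgene, was lower in every GW7647 library, with means of 2386 ± 147 and 1862 ± 129 CPM (log2 fold change -0.36, edgeR, adjusted p = 0.050) at less than 1.5-fold. The 7 biliary markers summed to 9380 to 10770 CPM with DMSO and 8139 to 8247 CPM with GW7647, and 2 of them were called lower. Most of this sum was *anxa4* (means of 4624 and 4122 CPM) and *krt18a.1* (3700 and 3003 CPM), neither of them called. Markers of the intestine, which also oxidizes fatty acids, summed to 22.4 to 51.5 CPM with DMSO and 79.5 to 102.9 CPM with GW7647 with none of the 5 called, most of it from *fabp2*. Kidney tubule markers summed to 222.6 to 289.7 CPM with DMSO and 129.6 to 205.6 CPM with GW7647, with neither of the 2 tested called. Most of this sum was 1 gene, *cdh17* (243 ± 33.7 and 158 ± 38.1 CPM), and *slc12a3* had 0 reads in every library.

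DMSO replicate 2 stood apart in markers of neighbouring tissues. Exocrine pancreas markers summed to 60.7 CPM in it and to at most 14.9 CPM in any other library, skeletal muscle markers to 32.5 against at most 15.8 CPM, and heart markers to 18.1 against at most 1.74 CPM. Intestine markers went the other way, at 22.4 CPM in it against at least 51.3 CPM in any other library. Without this library all 10 genes were again called higher, with log2 fold changes from 0.79 for *etfa* to 2.59 for *hadhaa* and a median of 1.63. The part of these cells in the rises below was not tested. In pooled liver RNA a change in the number of a cell type and a change in RNA per cell cannot be told apart.

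**Figure D1:**
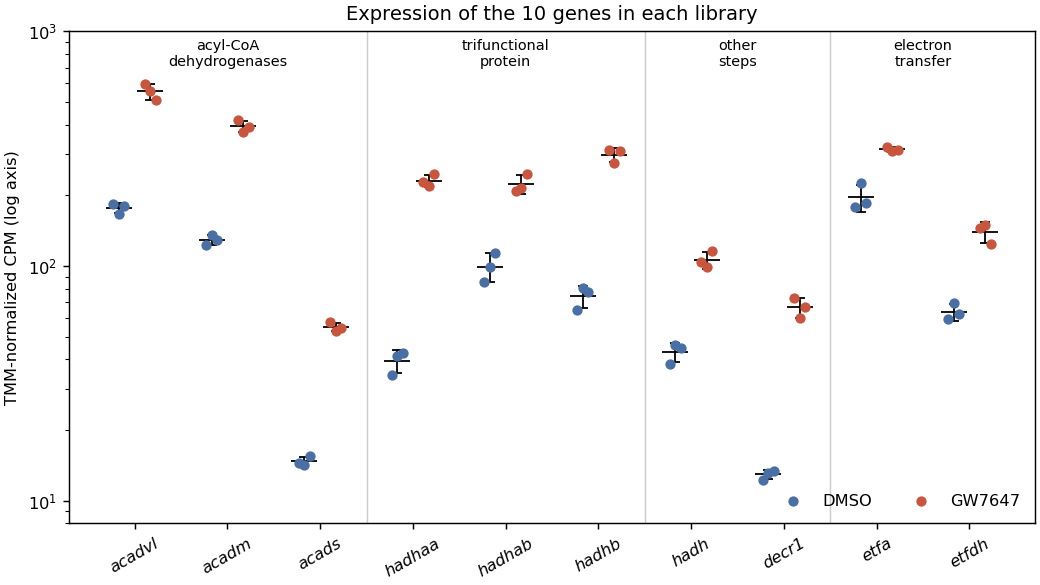
TMM-normalized CPM on a log axis for the 10 genes in each of the 6 libraries; points are libraries, black marks the mean and SD of the 3 libraries of a group. The groups stand apart for every gene, with the narrowest gap at *etfa*, whose lowest GW7647 library was 1.36 times its highest DMSO library.

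The acyl-CoA dehydrogenases catalyze the opening, FAD-dependent step. *acadvl* encodes the very long-chain enzyme of the inner membrane (ENSDARG00000016687, chromosome 7 from 20298333 to 20333524, 23 exons) and was read at 184.2, 166.6 and 179.9 CPM in DMSO replicates 1 to 3 and at 595.1, 555.2 and 510.9 CPM in GW7647 replicates 1 to 3. Its group means were 177 ± 9.16 and 554 ± 42.1 CPM (SD, n = 3), with a log2 fold change of 1.65 ± 0.10 (SE; edgeR, adjusted p = 5.2e-05). The lowest GW7647 library was thus 2.77 times the highest DMSO library.

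*acadm*, the medium-chain dehydrogenase whose loss is the commonest inborn error of this pathway in humans (ENSDARG00000038900, chromosome 2 from 26470070 to 26476150, 14 exons), gave 122.6, 135.8 and 129.4 CPM with DMSO and 417.5, 373.6 and 392.0 CPM with GW7647. The groups were 2.75 times apart at their nearest libraries, and differences between same-numbered libraries were 1.77, 1.46 and 1.60 on the log2 scale, around a fitted log2 fold change of 1.61 ± 0.09 (SE; edgeR, adjusted p = 4.8e-05). The fitted rises of *acadm* and *acadvl* were thus close to each other. *acads*, the short-chain dehydrogenase (ENSDARG00000030781, chromosome 10 from 43999263 to 44017665, 15 exons), was far less abundant, at 14.5, 14.2 and 15.4 CPM with DMSO and 57.4, 52.8 and 54.6 CPM with GW7647, with no overlap. In reads this was 314 to 353 with DMSO and 1057 to 1286 with GW7647. The log2 fold change of 1.90 ± 0.09 (SE, edgeR, adjusted p = 1.3e-05) was the largest of these 3 dehydrogenases. The long-chain dehydrogenase gene *acadl*, not among the 10, rose less than any of them (1.21, edgeR, adjusted p = 1.8e-04).

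The chain-length steps were compared by the ratio of 2 genes' reads within each library, which does not depend on scaling between libraries. There were 11 such ratios. Their permutation test did not pair same-numbered libraries, and with 3 libraries on each side its smallest two-sided exact p is 0.1. The ratio of *acadvl* to *acadm* was 1.502, 1.227 and 1.390 with DMSO and 1.43, 1.49 and 1.30 with GW7647, so the groups overlapped. Its change was 0.04 on the log2 scale (SE 0.10, two-sided exact permutation p = 0.7, adjusted p = 0.7 over the 11 ratios), and it turned to -0.04 without DMSO replicate 2 and to -0.01 without GW7647 replicate 2. The ratio of *acadm* to *acads* was 8.47, 9.52 and 8.38 with DMSO and 7.27, 7.07 and 7.18 with GW7647. The ranges did not overlap, and the difference was -0.29 on the log2 scale (SE 0.06, exact p = 0.1, adjusted p = 0.11). That of *acadvl* to *acads* also lay lower in every GW7647 library, with a difference of -0.26 (SE 0.07, exact p = 0.1, adjusted p = 0.11). Relative to either longer-chain transcript the short-chain one was thus higher in all GW7647 libraries, but with this test no ratio could pass a threshold of 0.05. Without DMSO replicate 2 the differences were -0.23 for *acadm* to *acads* and -0.28 for *acadvl* to *acads*.

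The trifunctional protein joins hydratase and long-chain 3-hydroxyacyl-CoA dehydrogenase activities on its α subunit with thiolase activity on its β subunit. Zebrafish have a pair of genes for the α subunit, *hadhaa* and *hadhab*, and *hadhb* encodes the β subunit. *hadhaa* (ENSDARG00000057128, chromosome 20 from 47953047 to 47984895, plus strand, 20 exons) was at 34.4, 41.5 and 42.5 CPM with DMSO and at 228.7, 218.9 and 245.3 CPM with GW7647. Its lowest GW7647 library was 5.15 times its highest DMSO library. The log2 fold change was 2.55 ± 0.11 (SE; edgeR, adjusted p = 1.1e-05), the largest of the 10, and *hadhaa* stood at rank 27 of 15705 genes by size of rise.

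*hadhab* (ENSDARG00000060594, chromosome 17 from 37227936 to 37252810, 20 exons) was the more abundant paralog with DMSO, at 85.5, 98.6 and 113.5 CPM, and reached 209.3, 215.1 and 247.1 CPM with GW7647. The groups were apart, the lowest GW7647 library at 1.84 times the highest DMSO library. The log2 fold change was 1.17 ± 0.13 (SE; edgeR, adjusted p = 0.0010). It is the only member with a sizeable share of reads mapped to more than 1 place, since 84.0% to 86.1% of its exon reads were unique, but with unique reads alone its log2 fold change was again 1.17. The reads of *hadhaa* came to 0.402, 0.421 and 0.374 of those of *hadhab* in the DMSO libraries and to 1.09, 1.02 and 0.993 in the GW7647 libraries. Read numbers of the paralogs were thus unequal with DMSO and nearly equal with GW7647, a difference of 1.37 on the log2 scale (SE 0.06, exact p = 0.1, adjusted p = 0.11), which was 1.38 with unique reads and 1.36 with exon-exon reads. Their annotated exons are of similar length, 2758 and 2851 bases, so the ratio per length was close to that of reads, from 0.387 to 0.435 with DMSO and from 1.03 to 1.13 with GW7647.

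*hadhb* (ENSDARG00000102055, chromosome 20 from 47927720 to 47953524, minus strand, 15 exons) lies head to head with *hadhaa*, and their annotated spans overlap by 478 bases on opposite strands. It gave 64.7, 80.2 and 77.5 CPM with DMSO and 312.9, 274.0 and 308.0 CPM with GW7647, with no overlap and a log2 fold change of 2.01 ± 0.12 (SE; edgeR, adjusted p = 4.2e-05). The libraries were made with a stranded kit, but whether counting used the strand is not given in the sources used here, so reads of the shared stretch may have been assigned to either gene. Reads across splice junctions, an alternative chosen after seeing the data, gave log2 fold changes of 2.52 for *hadhaa* and 1.99 for *hadhb*. The neighbours thus rose together by these reads as well. Summed over both α paralogs, the α subunit had 1.85, 1.75 and 2.01 reads per read of *hadhb* with DMSO and 1.40, 1.58 and 1.60 with GW7647, apart from each other by -0.29 on the log2 scale (SE 0.09, exact p = 0.1, adjusted p = 0.11). These are ratios of reads, and the annotated exons of *hadhb* are longer, at 6981 bases. Per length the ratio was 4.58, 4.32 and 4.97 with DMSO and 3.49, 3.95 and 3.98 with GW7647.

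*hadh* encodes the matrix 3-hydroxyacyl-CoA dehydrogenase for medium and short chains (ENSDARG00000030765, chromosome 1 from 49909672 to 49919042, 8 exons). It was at 38.3, 46.0 and 44.6 CPM with DMSO and at 103.6, 98.6 and 116.0 CPM with GW7647, the lowest library 2.145 times the highest of DMSO, with a log2 fold change of 1.30 ± 0.11 (SE; edgeR, adjusted p = 2.6e-04). The α subunit does the same reaction on long chains. The ratio of α-subunit reads to *hadh* reads was 3.13, 3.05 and 3.50 with DMSO and 4.227, 4.400 and 4.242 with GW7647, without overlap, a difference of 0.41 on the log2 scale (SE 0.06, exact p = 0.1, adjusted p = 0.11). This held for *hadhaa* and not for *hadhab*. Per *hadh* read there were 0.897, 0.902 and 0.953 reads of *hadhaa* with DMSO and 2.21, 2.22 and 2.11 with GW7647, whereas *hadhab* had 2.23, 2.14 and 2.55 against 2.02, 2.18 and 2.13, with overlap.

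*decr1* encodes the mitochondrial dienoyl-CoA reductase, an auxiliary enzyme that uses NADPH and is needed for unsaturated fatty acids (ENSDARG00000003869, chromosome 16 from 36748538 to 36760156, 10 exons). It was the least abundant of the 10 with DMSO, at 12.3, 13.0 and 13.4 CPM, and was at 72.7, 60.2 and 66.6 CPM with GW7647, where even the lowest library was 4.49 times the highest of DMSO. Its log2 fold change of 2.36 ± 0.10 (SE; edgeR, adjusted p = 1.1e-05) was exceeded among the 10 by *hadhaa* alone. Relative to *acadm* its reads were 0.1004, 0.0962 and 0.104 with DMSO and 0.174, 0.161 and 0.170 with GW7647, a difference of 0.75 (SE 0.05, exact p = 0.1, adjusted p = 0.11). The groups did not overlap, and same-numbered pairs differed by 0.80, 0.74 and 0.71.

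**Figure D2:**
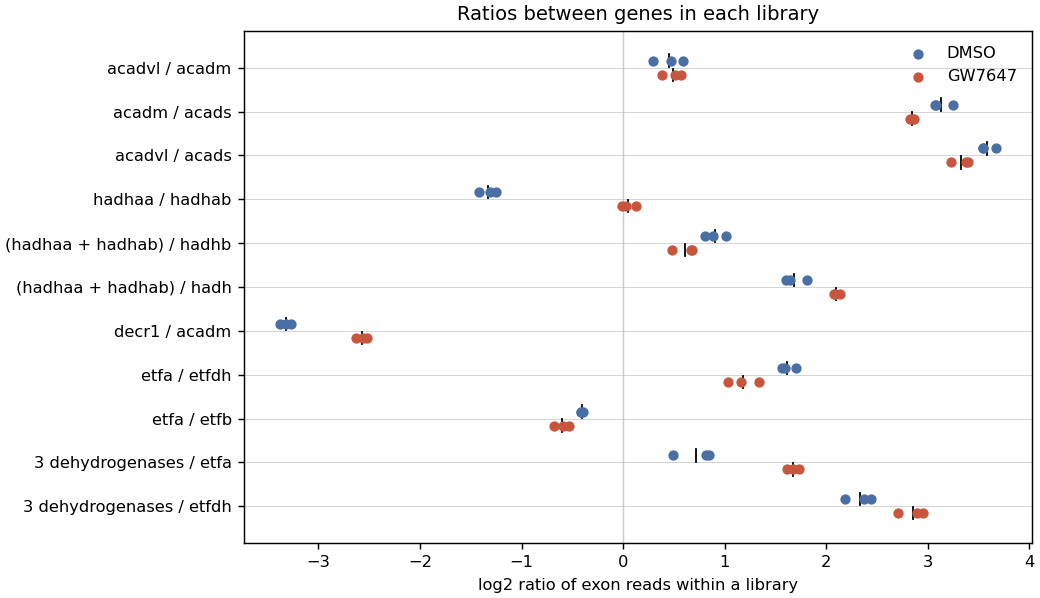
Log2 ratio of exon reads between genes within each of the 6 libraries (points), with the mean of the 3 libraries of a group as a short line. The groups overlap only for *acadvl* over *acadm*, and the widest shift is that of *hadhaa* over *hadhab*, from 0.374 to 0.421 with DMSO to 0.993 to 1.09 with GW7647.

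Of the 10 genes *etfa* had the smallest fold. *etfdh* came next, but within the standard error of *hadhab* (log2 fold changes 1.13 ± 0.11 and 1.17 ± 0.13, SE). The order of *etfdh* and *hadhab* turned without DMSO replicate 2 (1.198 and 1.173) and without GW7647 replicate 3. It held with any other library left out. *etfa* encodes the α subunit of ETF, the soluble acceptor that all of these acyl-CoA dehydrogenases share (ENSDARG00000101631, chromosome 25 from 32755485 to 32787247, 12 exons). It was already abundant with DMSO, at 178.3, 225.8 and 184.8 CPM, and was at 322.8, 307.6 and 311.8 CPM with GW7647. The GW7647 libraries lay close together (314 ± 7.84 CPM, against 196 ± 25.8 CPM with DMSO), with DMSO replicate 2 nearest to them. The log2 fold change was 0.68 ± 0.11 (SE; edgeR, adjusted p = 0.0081). This was 1.60-fold, just past the fold threshold, and with library totals in place of TMM it was 0.46 (adjusted p = 0.020) and no longer called, as with the deposited RPKM and TPM values, which are scaled to exon length and library total.

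*etfdh* encodes ETF-ubiquinone oxidoreductase, the iron-sulfur flavoprotein that passes the electrons from ETF to ubiquinone (ENSDARG00000038834, chromosome 14 from 48070872 to 48103207, 13 exons). It was at 59.2, 69.6 and 62.6 CPM with DMSO and at 144.5, 150.1 and 123.4 CPM with GW7647, the lowest 1.77 times the highest of DMSO, and had a log2 fold change of 1.13 ± 0.11 (SE; edgeR, adjusted p = 6.3e-04). Reads of *etfa* per *etfdh* read were 3.01, 3.24 and 2.95 with DMSO and 2.23, 2.05 and 2.53 with GW7647, without overlap. The difference was -0.44 on the log2 scale (SE 0.10, exact p = 0.1, adjusted p = 0.11). The β subunit gene *etfb*, the obligate partner of *etfa* and not among the 10, rose from 260 ± 31.7 to 477 ± 34.3 CPM (log2 fold change 0.87, edgeR, adjusted p = 0.0028). Reads of *etfa* per *etfb* read were 0.749, 0.762 and 0.752 with DMSO and 0.626, 0.665 and 0.690 with GW7647, a difference of -0.19 (SE 0.04, exact p = 0.1, adjusted p = 0.11).

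The summed reads of *acadvl*, *acadm* and *acads* were set against those of *etfa* and *etfdh*, genes of their electron acceptors. ETF was represented by *etfa* alone. Its partner *etfb* rose more (log2 fold changes 0.68 for *etfa* and 0.87 for *etfb*) and was not used in these ratios. Per *etfa* read there were 1.80, 1.40 and 1.76 dehydrogenase reads with DMSO and 3.32, 3.19 and 3.07 with GW7647, a difference of 0.96 on the log2 scale (SE 0.12, exact p = 0.1, adjusted p = 0.11). Per *etfdh* read there were 5.43, 4.55 and 5.18 with DMSO and 7.41, 6.54 and 7.76 with GW7647, a difference of 0.52 (SE 0.11, exact p = 0.1, adjusted p = 0.11). For both ratios the groups did not overlap, so every same-numbered pair was necessarily higher with GW7647 too. Without DMSO replicate 2, whose ratios were the lowest, the differences were 0.84 and 0.44.

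Levels between genes were compared per kilobase of exon with the deposited RPKM values. With DMSO, *etfa* was highest (119 ± 13.1 RPKM), followed by *acadm* (74.6 ± 3.03) and *acadvl* (47.8 ± 3.38), whose ranges did not overlap. Below them *hadhab*, *hadh* and *etfdh* (33.9 to 25.4 RPKM on average) overlapped as neighbours, *hadhaa* stood apart at 13.9 ± 1.58, and *hadhb*, *acads* and *decr1* (10.3 to 8.17) overlapped as neighbours. With GW7647, *acadm* was highest (197 ± 5.46 RPKM) and above *etfa* (164 ± 0.627) in each library, and *acadvl* reached 129 ± 7.83. *hadhaa*, *hadhab* and *hadh* then overlapped as neighbours at 70.5 to 62.7 RPKM, and *acads* was lowest at 29.0 ± 0.409, apart from *hadhb* and *decr1* above it. The level of *hadhb* per length depends on its annotated exon length of 6981 bases, against 1423 to 3604 bases for the other 9 genes.

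**Figure D3:**
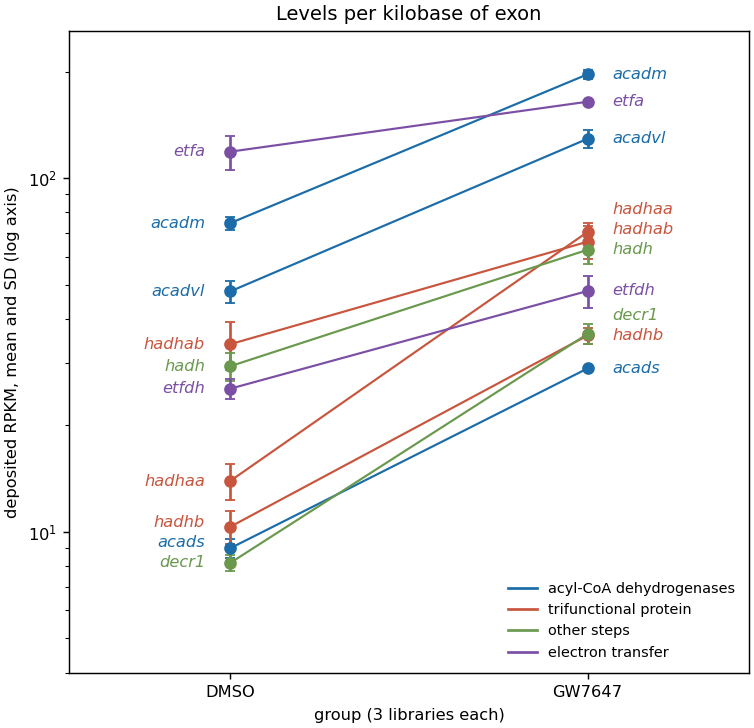
Deposited RPKM on a log axis for the 10 genes in DMSO and GW7647 livers, mean and SD of 3 libraries, colored by step of the pathway. *etfa* leads with DMSO at 119 RPKM and *acadm* with GW7647 at 197 RPKM, and the line of *hadhaa* crosses that of *hadhab*.

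Reads in introns come from other parts of the same genes than the exon counts and were few. Over the 10 genes they numbered 115, 122 and 134 in DMSO replicates 1 to 3 and 238, 223 and 294 in GW7647 replicates 1 to 3. As CPM the sum was 5.29, 5.22 and 5.86 with DMSO and 12.9, 10.8 and 12.5 with GW7647. The groups did not overlap, and the difference was 1.14 on the log2 scale (SE 0.10, two-sided exact permutation p = 0.1, the smallest possible), whereas intron reads of all genes changed by 0.04 (exact p = 0.7). Introns of *hadhaa* had 6, 7 and 10 reads with DMSO and 42, 23 and 72 with GW7647. For *hadhaa* and *hadhb*, reads of their shared stretch may have been counted in introns of the neighbour, which was not tested. Those of *acadm* had 6, 9 and 13 against 33, 30 and 30, and those of *etfa* 30, 26 and 30 against 47, 46 and 46. For *hadhab* the intron reads overlapped between groups (1, 5 and 14 against 8, 5 and 3), as they did for *acads* and *etfdh*.

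Other enzymes of mitochondrial beta-oxidation were read from a list of 10, of which 8 were called higher and 0 lower, with a median log2 fold change of 0.86. The thiolase gene *acaa2* had the largest change, from 121 ± 7.37 to 466 ± 24.6 CPM (1.94, adjusted p = 1.6e-05, edgeR's quasi-likelihood test), and was followed by *ech1* (1.52), an auxiliary isomerase. The long-chain dehydrogenase gene *acadl* (1.21), the enoyl-CoA isomerase gene *eci1* (1.28), *acad9* (0.85), which in mammals also serves complex I assembly, and the thiolase gene *acat1* (0.62) were called as well. The hydratase gene *echs1* changed by less than 1.5-fold (0.54, adjusted p = 0.0085), and *hsd17b10* had the smallest change (0.19, adjusted p = 0.29, and -0.04 with library totals). Entry into mitochondria through carnitine had 5 of 7 genes called higher and a median of 1.067, from the carnitine acetyltransferase gene *cratb* (0.05, adjusted p = 0.83, and -0.17 with library totals) to the carnitine palmitoyltransferase gene *cpt1b* (3.10, adjusted p = 3.3e-04), which was scarce (1.15 ± 0.512 and 9.94 ± 0.502 CPM in the DMSO and GW7647 groups). More abundant genes of this list rose as well, *cpt1ab* from 79.0 to 414 CPM (2.39, adjusted p = 6.1e-05) and *slc25a20* from 59.9 to 184 CPM (1.62, adjusted p = 7.8e-05). The paralog *cpt1aa* (0.39, adjusted p = 0.050) was not called. The parallel peroxisomal pathway had 10 of 12 called higher with a median of 0.91, from the thioesterase gene *acot8* (0.13, adjusted p = 0.69, and -0.09 with library totals) to the thiolase gene *acaa1* (1.23, adjusted p = 3.5e-04). The background was again 3.39% of genes called higher.

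Dehydrogenases that feed ETF from amino acids, choline breakdown and related substrates were read from 8 genes, with glutaryl-CoA dehydrogenase found as the paralogs *gcdha* (log2 fold change 0.33, adjusted p = 0.057) and *gcdhb* (0.57, adjusted p = 0.0052), neither called. Of the 8, 2 were called higher, *dmgdh* (0.72, adjusted p = 0.0038) and *sardh* (0.60, adjusted p = 0.014), which act on dimethylglycine and sarcosine, and the median was 0.36. All 8 had a positive log2 fold change, and the groups stood apart, with GW7647 above, for 7 of them. Of all genes tested, 3.39% were called higher and 15.7% stood apart in this way. *ivd*, of leucine breakdown, was at 207 ± 15.4 and 273 ± 28.4 CPM (log2 fold change 0.40, adjusted p = 0.054), and *d2hgdh* had the smallest change (0.08, adjusted p = 0.87, and -0.14 with library totals). The calls of *dmgdh* and *sardh* were lost with library totals, and without either DMSO replicate 2 or GW7647 replicate 1 the count was 1. Of 7 genes of flavin supply and ETF upkeep found by name, *slc52a3* was called (2.55, adjusted p = 6.8e-04), a riboflavin transporter that stood at only 0.618 ± 0.0328 CPM with DMSO and 3.66 ± 0.784 CPM with GW7647. The median of these 7 was 0.35, the FAD synthase gene *flad1* was at 0.35 (adjusted p = 0.058) and *slc52a2* was lowest at -0.11 (adjusted p = 0.70). The groups stood apart, with GW7647 above, for 4 of the 7, and the background shares were the same 3.39% called higher and 15.7% apart. *etfrf1* was not found by that name.

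Complex III and cytochrome c, which accept the electrons after ubiquinone, were read from 10 tested genes, while *uqcr11* was not found by name and *cycsa* had 0 reads in every library, which allows up to 0.163 CPM. Of the 10 tested, 1 was called higher, the core subunit gene *uqcrc2a* (0.60, edgeR, adjusted p = 0.015), at 1.51-fold. The groups stood apart, with GW7647 above, for 7 of the 10. The median was 0.37, with *uqcrq* lowest (0.18, adjusted p = 0.39, and -0.04 with library totals). The call of *uqcrc2a* was lost without DMSO replicate 3 (0.54), GW7647 replicate 1 (0.52) or GW7647 replicate 2 (adjusted p = 0.055). *uqcrc1* (0.45, adjusted p = 0.016) and *cyc1* (0.41, adjusted p = 0.019) had small adjusted p-values at less than 1.5-fold. Among PPAR receptors and their partners 2 of 10 were called higher, the receptor gene *esrra* (1.21, adjusted p = 0.0025) and *pparda* (0.60, adjusted p = 0.020), and the count was 1 when DMSO replicate 2 or 3 or GW7647 replicate 1 or 2 was left out. The PPARα genes were at 11.3 ± 1.34 and 9.23 ± 0.791 CPM (*pparaa*, log2 fold change -0.29, adjusted p = 0.22) and at 2.48 ± 0.386 and 1.51 ± 0.737 CPM (*pparab*, -0.70, adjusted p = 0.25) with DMSO and GW7647. In the PPAR list the groups stood apart, with GW7647 above, for 4 of 10 genes. For both lists the background was again 3.39% of all genes tested called higher and 15.7% apart in this way. No difference between the medians of these lists was tested.

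**Figure D4:**
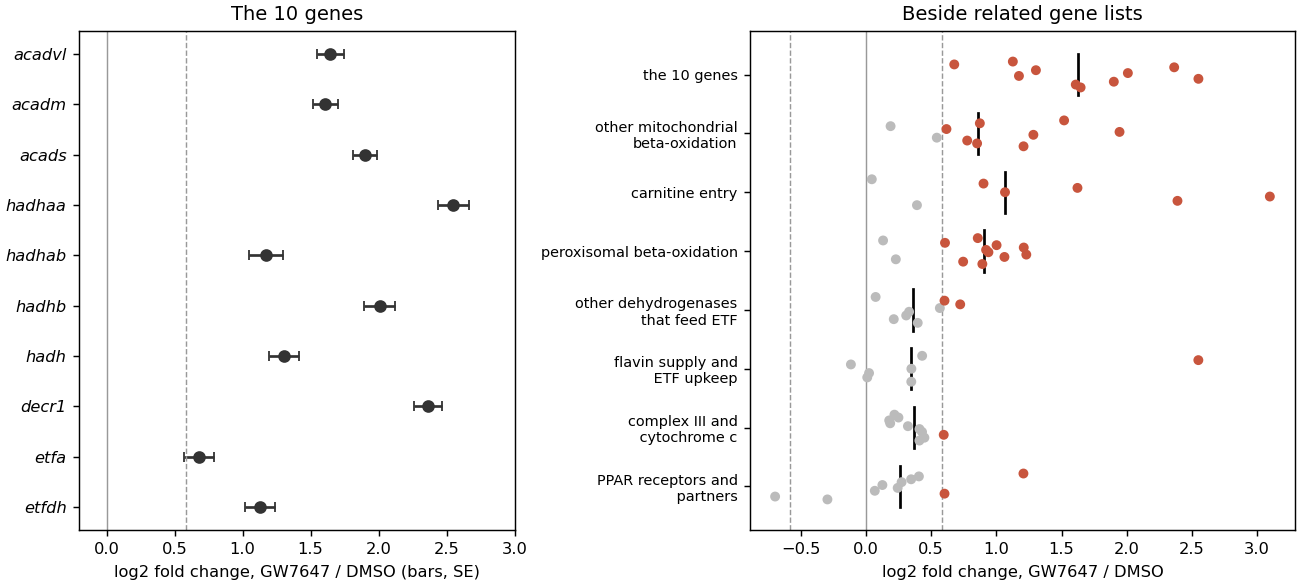
Left, log2 fold change of GW7647 over DMSO for each of the 10 genes with its standard error. Right, the same quantity for the 10 genes and 7 related lists, each point a gene, red when called and grey when not, with black lines at the medians and dashed lines at 1.5-fold; the medians run from 1.63 for the 10 genes to 0.26 for PPAR receptors and partners.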

How the data were processed

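Poly(A) RNA from pooled larval livers was sequenced in 6 libraries, 3 per group. The authors used CLC Genomics Workbench for mapping, and their deposited tables give, per gene, the count of reads on exons, introns and splice junctions, without normalization. The version, the genome build and the handling of multiply mapped reads are not given in the sources used here, and positions are those listed in the tables, counted from 1. The deposited RPKM values divide the same reads by exon length and library total, and the deposited TPM values are scaled to a constant sum per library. Both were used for levels per length or as alternatives only.

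Exon counts of all genes were compared with edgeR 4.0.16 in R 4.3.3 (TMM, filterByExpr with a minimum count of 10, quasi-likelihood test, no covariate), and each SE was derived from the F statistic. CPM uses TMM-scaled totals of the genes tested. Ratios within a library (0.5 added to each count) and intron reads were compared with exact two-sided permutation tests in Python 3.11.15. The genes and lists were chosen with earlier results of these data known. All 10 members are named. Of each pathway list, at least the genes with the largest and the smallest change and those not found or not tested are named. Others named there were chosen after their values were seen. Marker lists are described by sums, with only a few of their genes named. Macrophage, endothelial and erythroid markers were also read and are not described. Of these, *cd74a* alone was called, lower with GW7647 (log2 fold change -1.66, edgeR, adjusted p = 0.035). Of 68 pathway and 56 marker entries, 65 and 53 were found, 1 of them through a table of Ensembl identifiers. Alternatives were DESeq2 1.42.0, limma 3.58.1 on log2(RPKM + 1), log2(RPKM + 0.1) and log2(TPM + 1), other normalizations, filters and read classes, a test against a 1.5-fold change, each library left out in turn, and the replicate block. After subtraction of group means, log2 CPM correlated at 0.161 to 0.324 for the 3 same-numbered pairs of libraries. For the 6 others the range was -0.239 to 0.0754. These are not independent of the same-numbered values, since deviations from a group mean cancel within the group. The numbers were taken to pair libraries on this basis, which cannot establish that they do. The main edgeR fit and the printed permutation tests did not use this pairing, which entered the replicate block. The edgeR fits with and without the block, DESeq2 and limma were tested on simulated counts that held no replicate effect. For limma these were used as CPM, not as RPKM or TPM. The test against 1.5-fold was not tested on simulated data. No 2 libraries held identical counts. A count of 0 allows up to 3 reads, or 0.127 to 0.163 CPM, for counting error only.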

Additional observations from a re-analysis of the deposited data

How the results depend on the processing

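The count of 10 members called was 10 with DESeq2, upper-quartile scaling, both other filters, unique reads, all gene reads, exon-exon reads, the replicate block and each library left out. It was 9 with library totals, RPKM, TPM and the test against 1.5-fold, and *etfa* was the gene lost each time (log2 fold change 0.46 with library totals, 0.47 with both RPKM scales, 0.50 with TPM). With the replicate block the counts of called members and of calls over all related lists stayed at 10 and 29, but 699 of all genes were lower with it in place of 412. All genes called numbered 945, and 1832 with library totals, 1599 with log2(RPKM + 0.1), 168 against 1.5-fold, and 590 to 870 with a library left out, the lowest without DMSO replicate 2. The 29 calls over the related lists became 19 with log2(RPKM + 1) and 13 against 1.5-fold, and 23 to 29 with a library left out. Within these lists, other mitochondrial enzymes went from 8 to 5 with log2(RPKM + 1) and 4 against 1.5-fold, peroxisomal ones from 10 to 3 against 1.5-fold, and complex III from 1 to 0 in 10 of 19 alternatives.

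Genes near no change turned direction. With library totals the log2 fold changes were -0.0357 for *hsd17b10*, -0.174 for *cratb*, -0.0907 for *acot8*, -0.142 for *d2hgdh* and -0.0395 for *uqcrq*. With log2(RPKM + 1) they were -0.0215, -0.155, -0.0493, -0.0731 and -0.0214 in the same order, and with log2(RPKM + 0.1) -0.0217, -0.169, -0.0658, -0.100 and -0.0214. With log2(TPM + 1) they were -0.140 for *cratb*, -0.0388 for *acot8* and -0.0657 for *d2hgdh*. With exon-exon reads they were -0.00269 for *cratb*, -0.0440 for *acot8* and -0.0668 for *d2hgdh*, and upper-quartile scaling gave -0.00718 for *cratb*. With a library left out, *cratb* ran from -0.0366 to 0.121 and *d2hgdh* from -0.0645 to 0.318. The ratio of *acadvl* to *acadm* ran from -0.0428 to 0.103 with a library left out, and no other ratio turned. Causes were not tested.

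The fewest reads of a member in a library were 267, for *decr1*, whereas its intron reads went down to 0, too few to compare introns of single genes closely.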
